A study of Mus musculus with 7 samples.

Results

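The RNA levels of 36 genes of sugar breakdown were followed in Paneth cells of mice that had received dextran sulfate sodium (DSS) and of mice kept on water. The 36 were listed by symbol for their role in these pathways, with no threshold on measured values but with earlier results of these data known, and make up 36 of the 52550 genes in the count files. They fall into 18 genes of glycolysis, 4 of lactate, 7 of pyruvate and 7 of the pentose phosphate pathway. All of them were found and all 36 passed the filter on low counts. Paneth cells sit at the bottom of the crypts of the small intestine and secrete antimicrobial granules. They were sorted as live single cells by CD24 and side scatter, with red blood, endothelial and white blood cells (TER119, CD31 and CD45) gated out. All mice carried the Lgr5-EGFP-IRES-CreERT2 allele, a green fluorescent reporter and inducible recombinase at the stem cell gene Lgr5, and were of strain C57BL/6J. The 4 DSS libraries stem from mice aged 12, 10, 10 and 10 weeks that were given 3% DSS, which injures the gut epithelium, for 7 days and killed 3 days after it was withdrawn. The 3 water libraries came from mice of 12, 12 and 10 weeks.

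Glycolysis splits glucose into pyruvate in the cytosol. Lactate dehydrogenase then turns pyruvate into lactate, which leaves the cell through monocarboxylate transporters, or pyruvate enters mitochondria and is oxidised by the pyruvate dehydrogenase complex. The pentose phosphate pathway branches off at glucose 6-phosphate. Its oxidative arm makes NADPH and its non-oxidative arm trades sugar phosphates back to glycolysis. Paneth cells are known for high glycolysis and for passing lactate to the neighbouring Lgr5-positive stem cells.

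Library totals lay between 23175708 and 32451653 counts, so a count of 3 stood for 0.0924 to 0.129 CPM, counts scaled to a common library total. Levels below are CPM scaled by TMM, a method that sets libraries to a common level over most genes. The TMM factors were 0.899 to 0.922 in water and 0.980 to 1.14 in DSS. Every Paneth cell marker on an 8-gene list was detected in every library, and their sum was 218320 to 229857 CPM in water against 185315, 147831, 105807 and 112582 CPM in DSS 1 to 4. Of the 8, Lyz1, Itln1 and Defa24 were lower in every DSS library than in every water library. Ang4 was at 8954 to 9766 CPM in water and 10702, 16880, 6978 and 6095 CPM in DSS 1 to 4. Defa17, Mmp7, Pla2g2a and Habp2 each had at least 1 DSS library inside or above the water range. The lower marker sum in DSS stands beside all results that follow, and its part in them was not tested. The day in November of RNA isolation was 14, 14 and 21 for water 1 to 3 and 9, 16, 16 and 24 for DSS 1 to 4, so isolation day and treatment cannot be told apart. Going by file names, lane 6 held water 1 to 3 and DSS 4 but not DSS 1 to 3, so lane and treatment are largely confounded too. Tuft cell markers, 6 genes of a rare chemosensory epithelial cell, summed to 428, 480 and 430 CPM in water and to 429, 796, 805 and 401 CPM in DSS, which sets DSS 2 and DSS 3 apart. The sum of 7 enteroendocrine markers was 48.5 CPM in water 1 and 666 to 2694 CPM in the other 6 libraries. Stem cell markers (6 genes) summed to 4015 to 4847 CPM in water and 3891 to 4804 CPM in DSS. This sum is mostly Olfm4 and Slc12a2, and single markers went different ways. Lgr5 was at 168, 112 and 102 CPM in water and 118, 76.6, 56.7 and 62.4 CPM in DSS. Ascl2 was at 16.4 to 21.3 CPM in water and higher in every DSS library (22.0 to 26.7 CPM). The groups overlapped for the other stem cell markers. Enterocyte markers (9 genes) were at 424 to 521 and 377 to 522 CPM, and goblet cell markers (6 genes) at 5928 to 7313 and 5171 to 9800 CPM. Among the goblet markers, Clca1 was at 74.3 to 114 CPM in water and higher in every DSS library (193 to 754 CPM). Agr2 was at 945 to 1084 CPM in water and lower in every DSS library (519 to 941 CPM). The groups overlapped for the other goblet markers. Red blood cell markers (5 genes) stayed between 0.401 and 3.05 CPM. The white blood cell list of 7 genes summed to 9956 to 10245 CPM in water and 3772 to 7095 CPM in DSS, nearly all of it Lyz2, a lysozyme that Paneth cells also express, and S100a8 was at 0 in every library. In bulk RNA, a smaller number of cells of one type and less RNA in each of them cannot be told apart.

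Promoter sequence is shown for 4 of the genes. Gpi1 and Tkt are the members with the smallest p-values, Pfkfb3 is a member whose level split the DSS libraries, and Ldha is the most abundant gene of the lactate branch. The windows are the 250 bases before the RefSeq start of each gene (GRCm38.p6), read 5′ to 3′ on the gene's strand, at chr7:34230337-34230586 (minus) for Gpi1, chr14:30548881-30549130 (plus) for Tkt, chr2:11553930-11554179 (minus) for Pfkfb3 and chr7:46845554-46845803 (plus) for Ldha. Capitals mark ACGTG on either strand (CACGT is its reverse complement). ACGTG is a form of the core of the hypoxia response element, and other forms of that core were not searched. The E-box CACGTG, a binding motif of Myc and related factors, holds ACGTG on both strands.
Gpi1: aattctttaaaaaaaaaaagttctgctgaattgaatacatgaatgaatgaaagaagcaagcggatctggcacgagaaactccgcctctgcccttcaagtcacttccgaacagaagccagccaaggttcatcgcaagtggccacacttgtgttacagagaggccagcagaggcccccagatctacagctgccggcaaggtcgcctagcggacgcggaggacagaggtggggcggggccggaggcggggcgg
Tkt: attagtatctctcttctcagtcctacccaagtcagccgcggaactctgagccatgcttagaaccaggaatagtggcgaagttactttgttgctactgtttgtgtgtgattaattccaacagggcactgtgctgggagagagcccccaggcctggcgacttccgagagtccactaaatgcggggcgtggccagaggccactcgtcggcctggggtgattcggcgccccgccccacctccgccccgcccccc
Pfkfb3: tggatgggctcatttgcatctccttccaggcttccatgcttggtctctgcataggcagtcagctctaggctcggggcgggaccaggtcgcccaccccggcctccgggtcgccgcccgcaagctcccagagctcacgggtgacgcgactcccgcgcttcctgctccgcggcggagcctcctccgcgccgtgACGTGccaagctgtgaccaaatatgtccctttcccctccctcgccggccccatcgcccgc
Ldha: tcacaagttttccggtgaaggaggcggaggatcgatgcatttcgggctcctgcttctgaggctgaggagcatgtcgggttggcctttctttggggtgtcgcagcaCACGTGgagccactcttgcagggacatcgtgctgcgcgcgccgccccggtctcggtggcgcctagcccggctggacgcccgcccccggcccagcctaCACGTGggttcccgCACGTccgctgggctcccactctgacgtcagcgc
The Ldha window held 5 matches counted over both strands, among them the E-box, and the Pfkfb3 window held 1. The Gpi1 and Tkt windows held 0 matches of ACGTG, as did those of Pgd, Dlat and Rpe. ACGTG stood in the window of 11 of the 36 members (30.6%), against 4467 of 27025 promoters of the same length (16.5%). The 11 were Slc2a1, Hk2, Pfkm, Pfkfb3, Pgk1, Pgam1, Ldha, Slc16a1, Slc16a3, Pdhb and Pdk2. The E-box stood in 4 members (11.1%), against 1633 of all promoters (6.04%). These are matches of letters in a short window, which neither show nor exclude a bound factor.

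None of the 36 genes passed an adjusted p of 0.05 in the comparison of DSS with water by edgeR's quasi-likelihood test, where 0% of the 17449 genes tested passed in either direction and the smallest adjusted p of any gene was 0.124. Small shifts lay in 1 direction: 33 of the 36 log2 estimates were above 0 (91.7%), against 49.7% of all genes tested. The median log2 change was 0.12 over the members and 0.00 over all genes. In lane 6 only, which holds all water libraries but 1 DSS library, these medians were 0.09 and -0.01. At an unadjusted p under 0.05, 5 members were higher (13.9%, background 8.36%) and 1 was lower (2.78%, background 7.35%). The count of higher members was 2 without DSS 3 (background 6.03%), 3 without DSS 2 (7.13%), 3 without water 3 (5.28%), 8 without DSS 1 (9.3%), 2 with age as a covariate (5.24%) and 2 in lane 6 only (4.82%), so it is not read as an excess. The lower member was lost without water 1, water 3 or DSS 1. Of the 36, 4 had every DSS library above every water library (11.1%, background 7.4%) and 0 had every DSS library below (background 7.52%). With DESeq2 in place of edgeR, 2 members passed an adjusted p of 0.05, both higher (background 2.62% higher and 2.24% lower of 13223 genes). Without DSS 1, 0 members passed by edgeR (background 0.97% higher and 0.779% lower of 17319 genes), with Gpi1 nearest at an adjusted p of 0.0512. Scaling by library totals alone, which moved the median of all genes to 0.23, gave a member median of 0.35, with 28 members higher at an unadjusted p under 0.05 (background 35.7%) and 0 lower (background 1.0%). At an adjusted p of 0.05, 14 members were higher there and 0 lower (background 11.9% and 0.16%). Nothing in the labels says that no animal gave more than 1 library, so the p-values speak of the spread between libraries, which may be technical.

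The branches had similar medians. The log2 median was 0.13 in glycolysis, with 17 of 18 estimates above 0, 0.08 in lactate, 0.11 in pyruvate and 0.11 in the pentose phosphate branch, with 5 of 7 above 0. Taken library by library against the mean of the water libraries, the median member lay at 0.00, -0.04 and 0.01 on the log2 scale in water 1 to 3 and at 0.05, 0.18, 0.17 and 0.11 in DSS 1 to 4. DSS 1 was thus the DSS library nearest to water. It was also the only DSS library from a 12-week mouse, the age given for water 1 and water 2. The part of age in this was not tested. DSS 2 and DSS 3, which share the high tuft marker sums and isolation day 16, were the farthest. DSS 2 was the highest of the 7 libraries for 14 members and DSS 3 for 9. The summed level of the 36 genes was 2249 ± 39.5 CPM in water (SD, n = 3) and 2461 ± 103 CPM in DSS (SD, n = 4), with no overlap between groups.

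**Figure D1:**
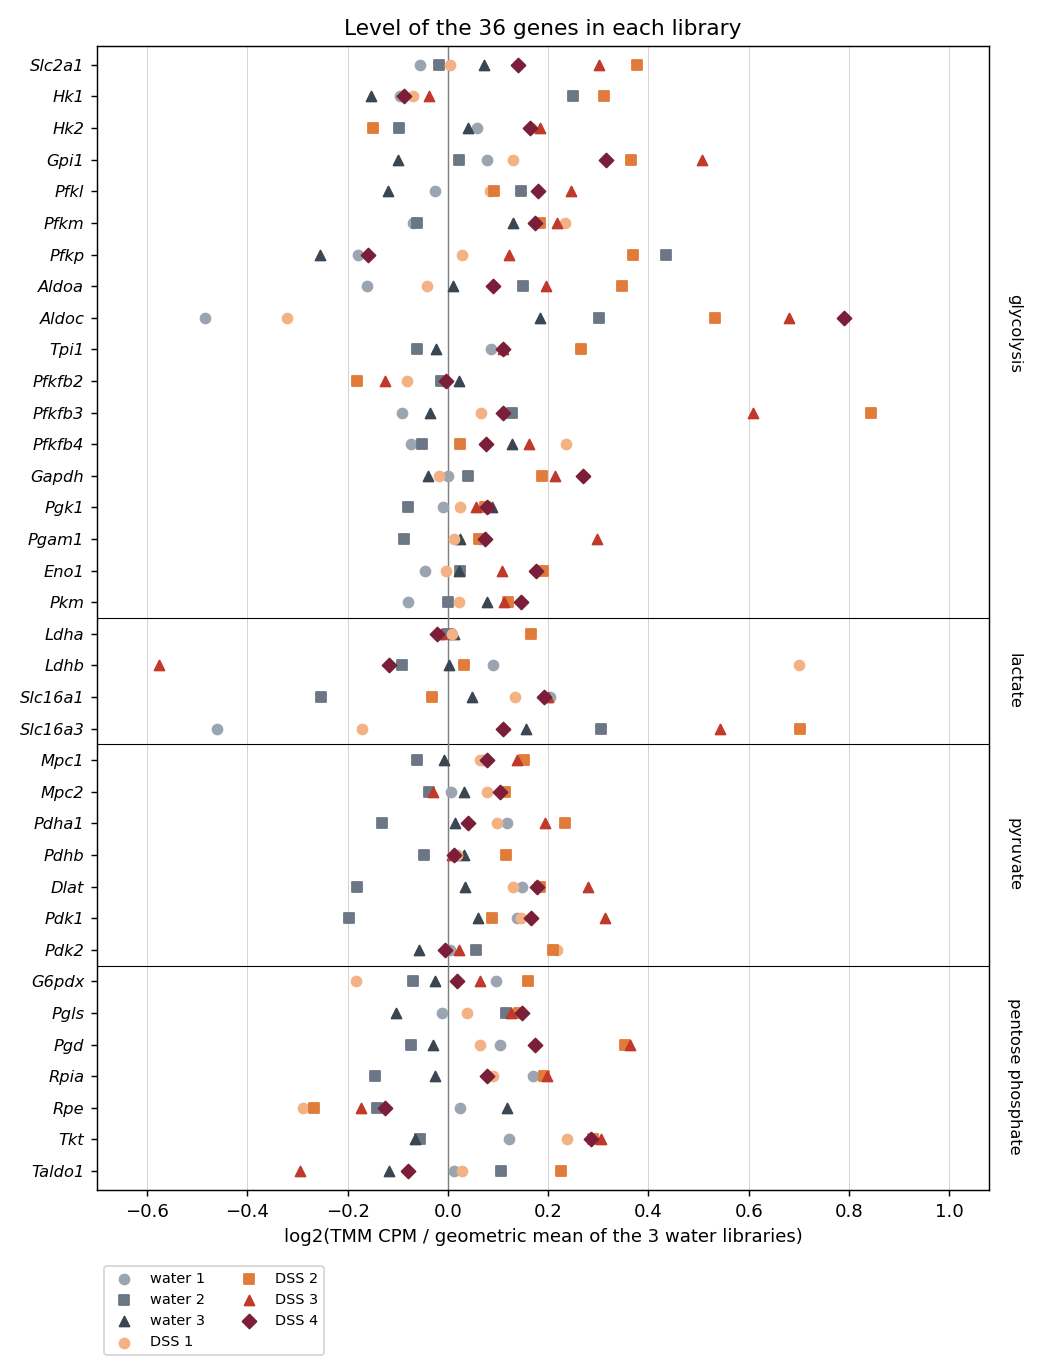
Level of each of the 36 genes in each of the 7 libraries, as log2 of TMM CPM over the geometric mean of the 3 water libraries, with 1 symbol per library and lines between the branches. Most DSS points lie to the right of 0, the DSS 2 and DSS 3 points of Pfkfb3 lie far from its DSS 1 and DSS 4 points, and in Rpe and Pfkfb2 3 of the 4 DSS points lie below all water points.

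Glucose enters through Slc2a1 (GLUT1) and is phosphorylated by the hexokinases Hk1 and Hk2. Slc2a1 had 17.1, 17.5 and 18.6 CPM in water and 17.8, 23.0, 21.9 and 19.5 CPM in DSS, with DSS 1 inside the water range (log2 0.21 ± 0.10 SE, adjusted p = 0.343 by edgeR). Hk2, the most abundant of these 3 genes per kilobase of exon, had 78.5, 70.4 and 77.4 CPM in water and 84.5, 67.9, 85.5 and 84.4 CPM in DSS. Its groups overlapped because DSS 2 was the lowest of all 7 libraries while the other DSS libraries were the highest (log2 0.09 ± 0.09, adjusted p = 0.661). Hk1 went the other way in DSS 2, with 21.1 CPM there against 16.0 to 16.6 CPM in the other DSS libraries, and water 2 was at 20.2 CPM (log2 0.03 ± 0.13). Hk2 made up 86.2 ± 2.57% of Hk1 and Hk2 per kilobase in water and 86.7 ± 3.01% in DSS.

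Gpi1 encodes glucose 6-phosphate isomerase, the step after hexokinase (chr7:34201330-34230336, minus strand, mm10). It had 114, 110 and 101 CPM in water and 118, 139, 153 and 134 CPM in DSS. Every DSS library was above every water library, and DSS 1 was within 4.27 CPM of the highest water library. The log2 difference was 0.33 ± 0.09 (unadjusted p = 0.0053, adjusted p = 0.169 by edgeR, adjusted p = 0.0265 by DESeq2). Over 18 alternatives it ran from 0.23 to 0.58, with an unadjusted p under 0.05 in all 18 and adjusted p-values of 0.0265 to 0.614. Gm1840, a gene with near-identical sequence, was at 30.9, 27.2 and 29.3 CPM in water and 29.1, 34.8, 40.5 and 36.2 CPM in DSS. Gpi1 held 77.5 to 80.2% of the 2 genes' sum in every library, and the sums were 130 to 145 CPM in water and 147 to 194 CPM in DSS. Another gene, Gm26762, overlaps 11.5% of the Gpi1 exon bases with a mean of 0.926 CPM in water and of 1.19 CPM in DSS.

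Phosphofructokinase, which commits sugar to glycolysis, has the 3 forms Pfkl, Pfkm and Pfkp. Pfkm, the muscle form, had 6.64, 6.67 and 7.63 CPM in water and 8.19, 7.91, 8.10 and 7.85 CPM in DSS. The groups did not overlap, though water 3 came within 0.228 CPM of DSS 4 (log2 0.20 ± 0.10, adjusted p = 0.372 by edgeR). Pfkl, the liver form, was at 39.5 ± 3.72 CPM in water and 43.7 ± 2.34 in DSS, and Pfkp, the platelet form, at 44.5 ± 12.4 and 46.7 ± 7.18, the wide spread coming from water 2 (58.8 CPM) and DSS 2 (56.1 CPM). Per kilobase, Pfkl held 51.1 ± 1.83% of the 3 forms in water and 51.4 ± 2.89% in DSS, Pfkm 20.6 ± 3.45% and 21.3 ± 0.972%, and Pfkp 28.3 ± 4.36% and 27.3 ± 3.36%. Without length correction, Pfkp held 48.4 ± 4.80%, Pfkl 43.8 ± 3.34% and Pfkm 7.85 ± 1.69% in water, so the order of the forms depends on the exon length used.

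Aldolase splits the 6-carbon sugar and triose phosphate isomerase (Tpi1) interconverts the triose products. Tpi1, the most abundant member of upper glycolysis per kilobase (45.2 CPM per kb in water), had 132, 119 and 122 CPM in water and 134, 150, 134 and 134 CPM in DSS. All DSS libraries were above all water libraries, by 2.11 CPM at the nearest pair, and DSS 2 stood above the other DSS libraries (log2 0.15 ± 0.07, adjusted p = 0.332 by edgeR). Aldoa was at 134 ± 14.3 CPM in water and 148 ± 17.0 in DSS (log2 0.15 ± 0.11) and the scarce Aldoc at 2.88 ± 0.771 and 3.91 ± 1.16 (log2 0.45 ± 0.28, adjusted p = 0.479), both with overlap.

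The PFKFB enzymes make and remove fructose 2,6-bisphosphate, the main activator of phosphofructokinase. Pfkfb3, a form with high kinase activity (chr2:11471433-11554077, minus strand), had 25.6, 29.8 and 26.6 CPM in water and 28.5, 48.9, 41.5 and 29.4 CPM in DSS. Only DSS 2 and DSS 3 lay above the water range, and these are the libraries with tuft marker sums of 796 and 805 CPM. They are also the only libraries isolated on day 16, so isolation day and tuft marker sum cannot be told apart here. The log2 difference was 0.44 ± 0.18 (unadjusted p = 0.0393, adjusted p = 0.294 by edgeR) over all libraries and 0.09 ± 0.09 (adjusted p = 0.841) without DSS 2 and DSS 3. The part of tuft cells or of isolation day in it was not tested.

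**Figure D2:**
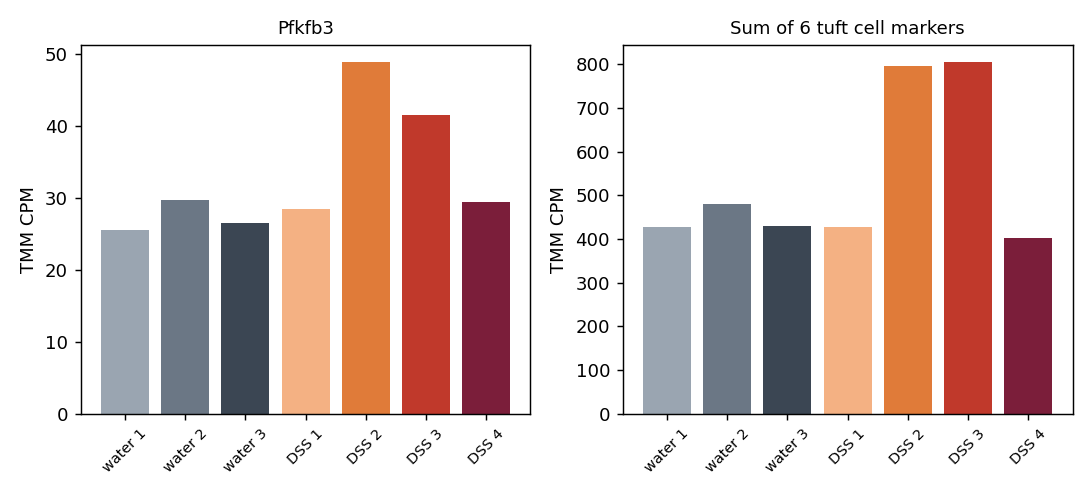
Bars give Pfkfb3 (left) and the sum of 6 tuft cell markers (right) in each library, both in TMM CPM from 0. DSS 2 and DSS 3 stand above the other 5 libraries in both panels, at 48.9 and 41.5 CPM for Pfkfb3 and at 796 and 805 CPM for the markers. These libraries also share their isolation day.

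Pfkfb2, at 3.66 CPM per kb in water against 3.61 for Pfkfb3, a difference within the spread of the libraries, had 26.4, 26.3 and 27.0 CPM in water and 25.1, 23.4, 24.3 and 26.5 CPM in DSS. The groups overlapped through DSS 4, and the estimate was 1 of only 3 below 0 among the 36 (log2 -0.10 ± 0.06, adjusted p = 0.512). Its share of the 3 PFKFB genes per kilobase was 34.4 ± 1.06% in water and 28.8 ± 3.83% in DSS, without overlap. That share holds Pfkfb3 in its denominator, which was at 33.9 ± 2.22% and 40.4 ± 7.36%. Pfkfb4 had 16.4 ± 1.29 CPM in water and 17.9 ± 1.17 in DSS.

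Lower glycolysis runs from glyceraldehyde 3-phosphate to pyruvate. Pgk1, the first ATP-making step and the most abundant of the 5 genes per kilobase (25.4 CPM per kb in water), had 56.5, 53.9 and 60.5 CPM in water and 57.8, 59.8, 59.1 and 60.04 CPM in DSS. Every DSS value lay inside the water range (log2 0.06 ± 0.06, adjusted p = 0.695 by edgeR). Pkm, pyruvate kinase, was at 125 ± 6.86 CPM in water and 134 ± 4.95 in DSS, Eno1, enolase, at 51.7 ± 1.43 and 56.1 ± 3.39, Pgam1, phosphoglycerate mutase, at 21.5 ± 1.16 and 23.2 ± 2.12, and Gapdh, the dehydrogenase step, at 8.96 ± 0.251 and 10.1 ± 0.844. Their log2 estimates were 0.10 to 0.17, and none passed at an unadjusted p under 0.05. Pkm held 60.5 ± 0.707% and Pklr, the liver and red cell form, 39.5 ± 0.707% of their sum per kilobase in water, and Pkm held 61.9 ± 1.47% in DSS. The files count whole genes, so the M1 and M2 splice forms of Pkm are not separated.

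Reads of several members can be shared with near-identical genes, because the counts took the primary alignment of reads with several matches. A search of exon sequence for genes with at least 90% identity over at least 300 bases found such look-alikes for 14 members and none for 22. Gapdh had 170 of them. It held only 14.3 to 16.4% of the sum of its own and their counts in each library, and the look-alike Gm12070 alone was at 17.7 to 21.3 CPM. The Gapdh level is therefore uncertain. Pgk1 held 52.3 to 54.7% (with Pgk1-rs7), Pgam1 50.3 to 52.2% (with Pgam1-ps2 and Pgam1-ps1) and Eno1 48.9 to 51.1% (with Gm4735 and Eno1b). These shares lay in narrow ranges over water and DSS alike, but the levels of these genes are likewise uncertain. Summed with its look-alikes, Gapdh had 60.1 CPM in water and 63.9 in DSS, Pgk1 at 107 and 110, Pgam1 at 41.9 and 45.3 and Eno1 at 103 and 114.

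**Figure D3:**
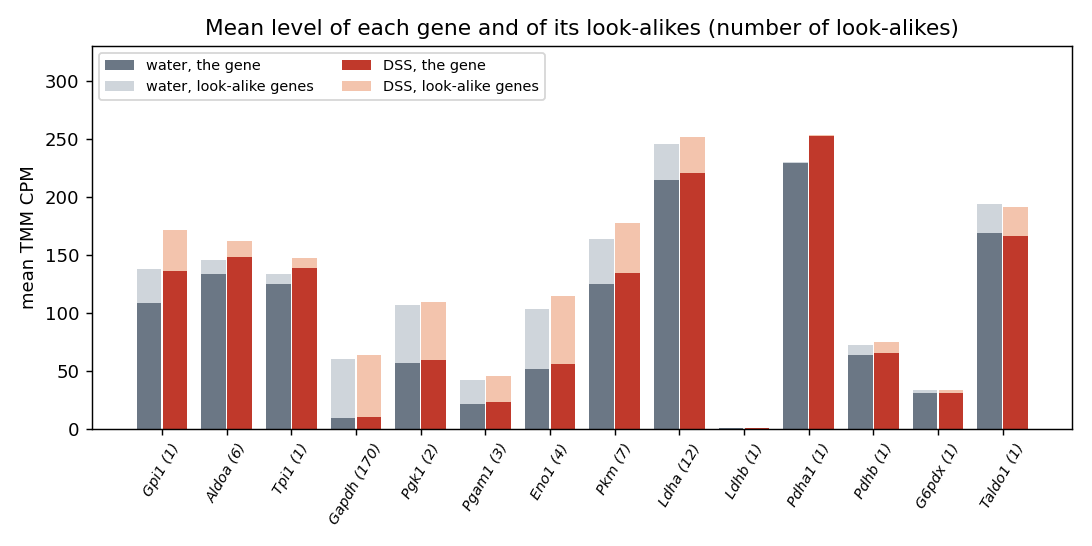
Mean TMM CPM in water (grey, n = 3) and DSS (red, n = 4) of the 14 genes with look-alikes, with the summed look-alike genes stacked on top in pale colour and their number in brackets. Gapdh, Pgk1, Pgam1 and Eno1 hold under 60% of their stacks, and the other genes hold above 75%.

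Pyruvate becomes lactate through Ldha and Ldhb, and lactate leaves through Slc16a1 (MCT1) and Slc16a3 (MCT4). Ldha, at 64.9 CPM per kb in water the second most abundant of the 36 after Taldo1, had 213, 215 and 217 CPM in water and 216, 241, 213 and 212 CPM in DSS. The other 6 libraries spanned 4.91 CPM and DSS 2 lay above them (log2 0.04 ± 0.07, adjusted p = 0.842 by edgeR). Ldha made up 99.5 ± 0.0305% of both dehydrogenase genes per kilobase in water and 99.5 ± 0.181% in DSS, with Ldhb at 0.309 to 0.749 CPM. Slc16a1 had 49.3 ± 7.72 CPM in water and 53.4 ± 3.84 in DSS, and Slc16a3 at 2.39 ± 0.620 and 2.94 ± 0.791, with overlap in both. Slc16a1 held 96.0 ± 1.54% of the 2 transporters per kilobase in water and 95.6 ± 1.37% in DSS. The shares of Ldha and Slc16a1 differed between the groups by less than the spread of the libraries.

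In mitochondria, pyruvate enters through Mpc1 and Mpc2 and is oxidised by pyruvate dehydrogenase (Pdha1 and Pdhb), with Dlat as the acetyltransferase of the complex. Pdha1, the most abundant of this branch per kilobase (61.4 CPM per kb in water), had 248, 209 and 231 CPM in water and 245, 269, 261 and 235 CPM in DSS. Water 1 lay inside the DSS range (log2 0.14 ± 0.08, adjusted p = 0.453 by edgeR). Dlat had 43.5, 34.6 and 40.2 CPM in water and 43.0, 44.6, 47.7 and 44.4 CPM in DSS. Its groups overlapped by DSS 1 alone, which lay just under water 1 (log2 0.19 ± 0.08, unadjusted p = 0.0499, adjusted p = 0.318). Mpc1 was at 12.7 ± 0.593 CPM in water and 13.7 ± 0.418 in DSS, Mpc2 at 31.8 ± 0.784 and 33.3 ± 1.49, and Pdhb at 63.5 ± 1.87 and 65.2 ± 2.37. The kinases Pdk1 and Pdk2, which switch the complex off, were at 38.6 ± 4.55 and 46.5 ± 1.83 CPM in water and at 43.6 ± 2.96 and 50.3 ± 4.14 CPM in DSS.

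Pdk4, the kinase form induced by fasting and fat use, is no member but belongs to the same step. It had 6.42, 9.94 and 8.76 CPM in water and 4.76, 0.647, 2.26 and 2.24 CPM in DSS. All DSS libraries were below all water libraries, DSS 2 the farthest (log2 -1.79 ± 0.47, adjusted p = 0.162 by edgeR and a range of 0.00604 to 0.573 over 18 alternatives). Pdk4 held 7.95 ± 1.48% of the 4 kinase genes per kilobase in water and 2.40 ± 1.53% in DSS, without overlap, while Pdk2 held 49.3 ± 4.36% and 54.9 ± 3.74%. Pdp1, a phosphatase that switches the complex back on, was at 8.60, 9.41 and 8.25 CPM in water and 6.25, 6.50, 6.31 and 5.91 CPM in DSS. It too had no overlap (log2 -0.49 ± 0.10, adjusted p = 0.138 by edgeR).

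**Figure D4:**
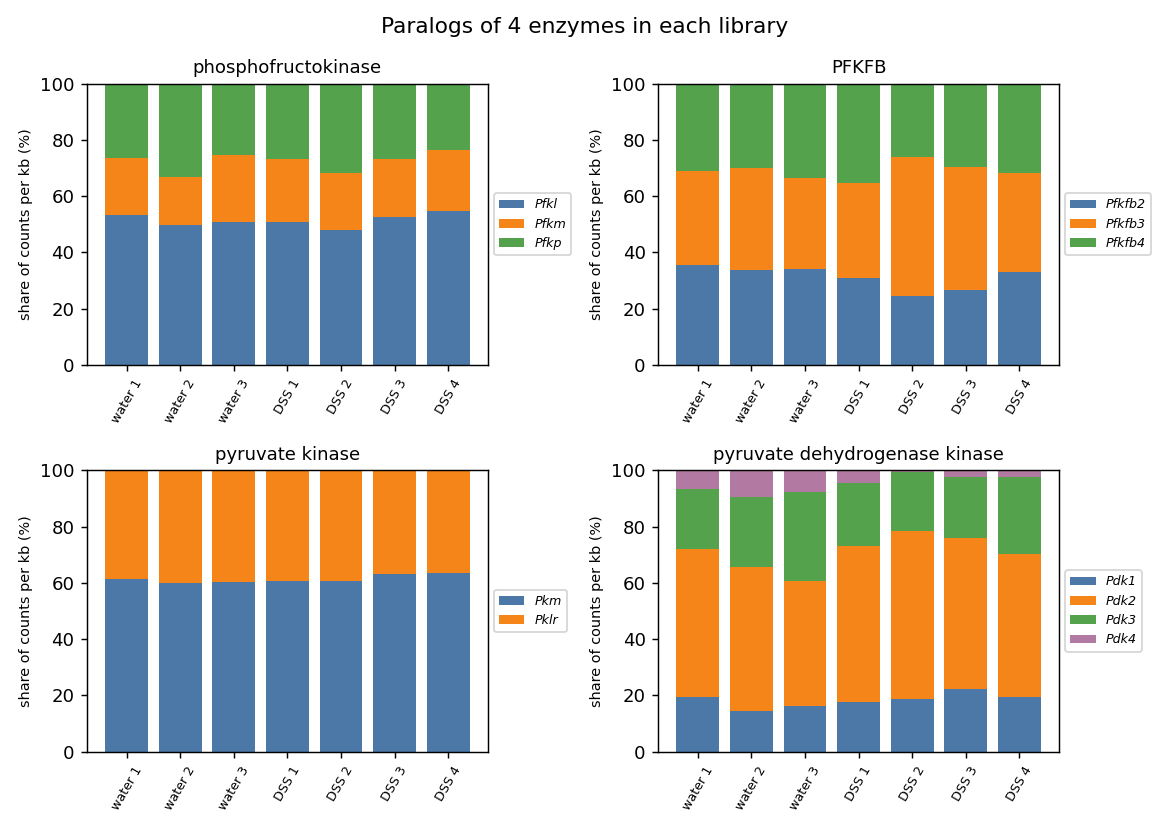
Share of each gene in the summed counts per kilobase of its enzyme family, in percent, for 4 families and 7 libraries. The Pdk4 segment is smaller in every DSS library than in every water library, and the other segments overlap between groups except Pfkfb2.

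The oxidative arm of the pentose phosphate pathway runs through G6pdx, Pgls and Pgd. Pgd, 6-phosphogluconate dehydrogenase, makes the second NADPH of the arm and was the most abundant of the 3 per kilobase (12.3 CPM per kb in water). It had 84.9, 74.99 and 77.3 CPM in water and 82.5, 101, 102 and 89.0 CPM in DSS. DSS 1 lay under water 1 and the other DSS libraries above all water libraries (log2 0.24 ± 0.09, unadjusted p = 0.0218, adjusted p = 0.242 by edgeR). G6pdx, the entry step, was at 30.6 ± 1.86 CPM in water and 31.0 ± 3.02 in DSS (log2 0.02 ± 0.09), and Pgls, the lactonase, at 36.01 ± 2.77 and 38.9 ± 1.36 (log2 0.11 ± 0.07). The NADPH-using glutathione reductase Gsr, from the list of related genes, was at 78.5 ± 3.42 CPM in water and 84.2, 108, 104 and 88.2 CPM in DSS, without overlap (log2 0.29 ± 0.09, adjusted p = 0.208).

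In the non-oxidative arm, Tkt, transketolase, moves 2-carbon units between sugars (chr14:30548359-30574720, plus strand). It had 244, 216 and 214 CPM in water and 264, 274, 277 and 274 CPM in DSS. Even the lowest DSS library exceeded the highest water library, and the DSS libraries spread less (SD 5.58 CPM) than the water libraries (SD 16.6 CPM). The log2 difference was 0.28 ± 0.07 (unadjusted p = 0.00327, adjusted p = 0.153 by edgeR, adjusted p = 0.00567 by DESeq2), the smallest p of the 36. Over 18 alternatives it was 0.25 to 0.51, with an unadjusted p under 0.05 in all 18 and adjusted p-values of 0.00567 to 0.592. Tkt has no look-alike, and 1 base of its exons overlaps another gene.

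Taldo1, transaldolase, the partner of Tkt and the most abundant of the 36 per kilobase (77.7 CPM per kb in water), had 170, 181 and 155 CPM in water and 172, 197, 137 and 159 CPM in DSS. DSS held both the highest and the lowest library (log2 -0.02 ± 0.12, adjusted p = 0.954 by edgeR). Rpe, the epimerase of ribulose 5-phosphate, had 49.0, 43.7 and 52.3 CPM in water and 39.5, 40.1, 42.8 and 44.2 CPM in DSS. DSS 4 lay just above water 2 and the other 3 below all water libraries (log2 -0.22 ± 0.08, unadjusted p = 0.0198, adjusted p = 0.235). Kansl1l covers 17.9% of the Rpe exon bases and was at 23.7 ± 0.670 CPM in water and 19.0 ± 3.57 in DSS (log2 -0.32 ± 0.14, adjusted p = 0.320), and without strand in the counting the 2 genes' reads there cannot be told apart. Rpia, the isomerase acting on the same sugar, was at 28.5 ± 3.18 CPM in water and 31.3 ± 1.40 in DSS (log2 0.13 ± 0.08).

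**Figure D5:**
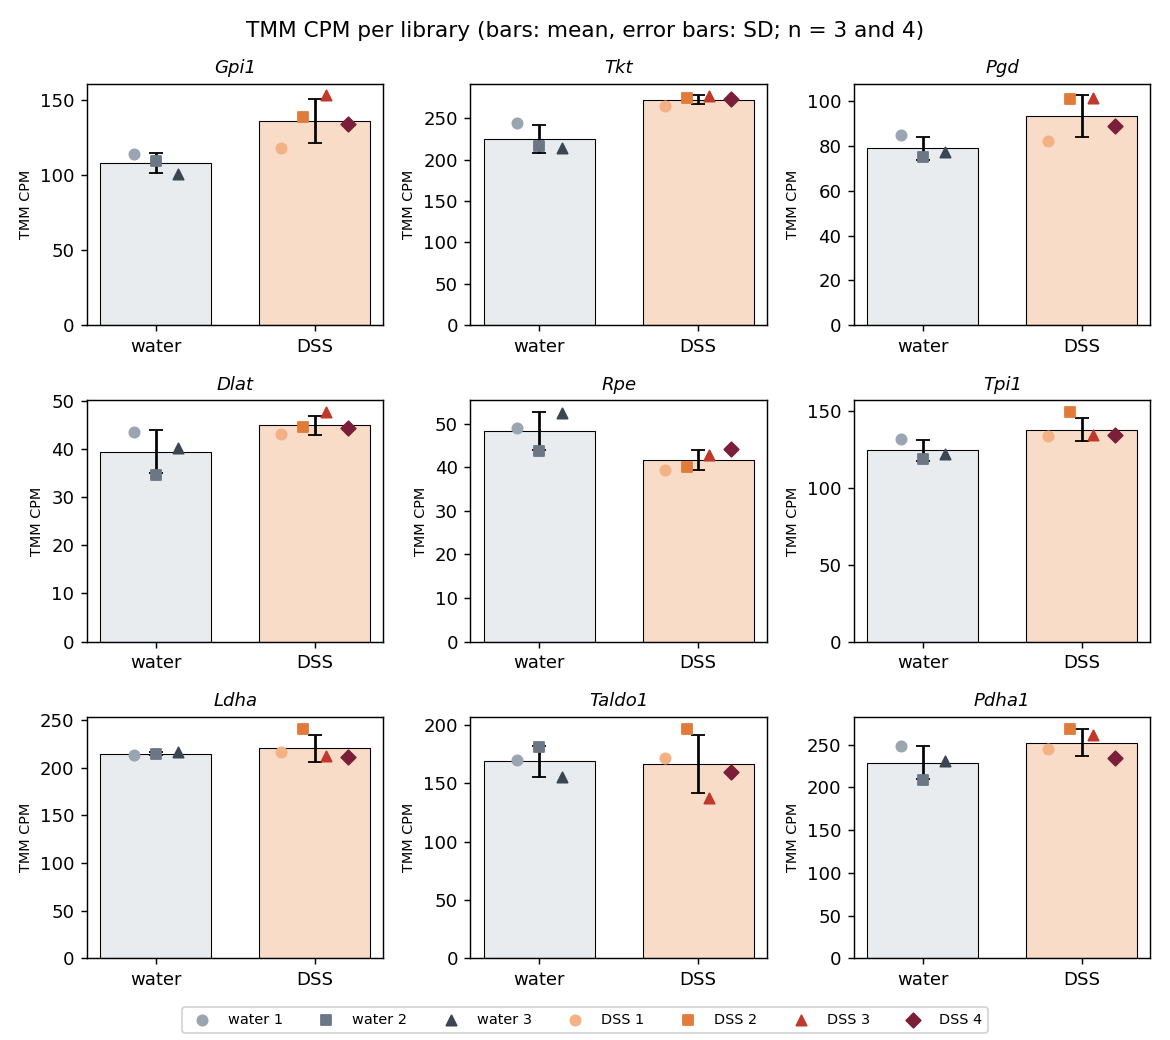
TMM CPM of 9 of the genes in water (grey, n = 3) and DSS (orange, n = 4), with bars from 0 for the mean, error bars for the SD and 1 symbol per library. Gpi1, Tkt and Tpi1 show no overlap between groups, while Ldha and Taldo1 have nearly equal means.

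Across the 36 genes, the level per kilobase in water ran from 0.294 CPM per kb for Ldhb to 77.7 for Taldo1. After Taldo1, Ldha and Pdha1 came Tpi1 at 45.2, Aldoa at 38.2, Tkt at 30.6, Pgk1 at 25.4, Pkm at 25.0 and Gpi1 at 16.8 CPM per kb. This order leaves out the counts of look-alikes. Gapdh, Pgk1, Pgam1 and Eno1 held under 60% of the sum with theirs, so their place in it is uncertain. Pgk1 and Pkm did not differ beyond the spread of the libraries, and neither did Ldha and Pdha1. Another gene overlaps exons of 16 members, by more than 10% of the bases in 9 and by 23.1% at most (Mpc1). Fold differences between DSS and water stayed under 1.5 for all 36, from 0.861 for Rpe to 1.37 for Aldoc.

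Other genes of these pathways were taken from 7 lists, chosen with earlier results known, and none of their genes passed an adjusted p of 0.05 by edgeR. In the citric acid cycle, 16 of 18 genes had estimates above 0. At an unadjusted p under 0.05, the threshold for all counts of higher or lower genes in this paragraph, 5 were higher (27.8%) and 0 lower (background 8.36% and 7.35%). Fh1, Idh3b and Cs, all enzymes of the cycle, were at log2 0.17 to 0.19, each without overlap, and the list median was 0.07. Of the 18, 5 had every DSS library above every water library (27.8%, background 7.4%) and 0 had every DSS library below (background 7.52%). Of 16 further glycolysis genes tested, 4 were higher (25%) and 0 lower (background 8.36% and 7.35%). The 4 were Eno1b (log2 0.31 ± 0.11), Tigar, which removes fructose 2,6-bisphosphate (0.44 ± 0.16), Pgam2 (0.76 ± 0.28) and Hkdc1 (0.33 ± 0.13). Of 10 genes of gluconeogenesis and fructose use, 2 were higher (20%) and 0 lower (background 8.36% and 7.35%). The 2 were the glucose 6-phosphate transporter Slc37a4 (0.26 ± 0.08) and ketohexokinase Khk (0.38 ± 0.15), and Pck1 and Fbp2 were at -0.40 ± 0.18 and 0.19 ± 0.09. Of 12 further lactate and pyruvate genes, 1 was higher (8.33%) and 2 lower (16.7%, background 8.36% and 7.35%). The higher gene was the malic enzyme Me1 (1.39 ± 0.57, with DSS 2 at 7.77 CPM and the other DSS libraries at 1.73 to 2.47). The lower genes were Pdp1 and Pdk4, with Me2 at 0.14 ± 0.09. Of 9 further pentose phosphate and NADPH genes, 1 was higher (11.1%) and 1 lower (11.1%, background 8.36% and 7.35%). Gsr was the higher gene and the ribose phosphate kinase Prps1 the lower (-0.19 ± 0.07), with Shpk at 0.28 ± 0.15 and Nqo1 at 0.33 ± 0.21. The lists are short, so these shares are not read as an excess.

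Genes known as targets of hypoxia-inducible factors were mixed in direction. Of 18 tested, 1 was higher at an unadjusted p under 0.05 (5.56%, background 8.36%), the carbonic anhydrase Car9 (log2 0.24 ± 0.09), and 2 were lower (11.1%, background 7.35%), shares near the background, and the list median was -0.07. P4ha1, a collagen prolyl hydroxylase, had 24.4, 28.9 and 20.7 CPM in water and 14.5, 15.4, 13.3 and 17.4 CPM in DSS, without overlap (log2 -0.70 ± 0.13, adjusted p = 0.124 by edgeR). Bnip3l, a mitophagy receptor, was at -0.22 ± 0.06, also without overlap, and Bnip3 at -0.30 ± 0.17. Of the 18, 3 had every DSS library below every water library (16.7%, background 7.52%) and 0 every DSS library above (background 7.4%). This share of a short list is not read as an excess. Of 8 regulators of sugar use, 2 were higher at an unadjusted p under 0.05 (25%, background 8.36%) and 1 was lower (12.5%, background 7.35%). Every DSS library was above every water library for 2 of them (25%, background 7.4%) and below for 1 (12.5%, background 7.52%). With a list this short, the shares are not read as an excess. Txnip, which restrains glucose uptake, had 349, 394 and 319 CPM in water and 301, 212, 215 and 222 CPM in DSS. All DSS libraries were below all water libraries, DSS 1 nearest to them (log2 -0.58 ± 0.13, adjusted p = 0.138). Myc, which can drive glycolytic genes, had 71.6, 67.5 and 58.0 CPM in water and 78.7, 82.2, 80.0 and 92.7 CPM in DSS, without overlap (log2 0.35 ± 0.09, adjusted p = 0.157). Esrra, a driver of mitochondrial genes, was at 0.39 ± 0.09 without overlap (adjusted p = 0.139), and Mlxipl, the glucose sensor ChREBP, at 0.16 ± 0.07 (adjusted p = 0.343).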

How the data were processed

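Polyadenylated RNA of sorted Paneth cells was measured in 7 libraries, 4 DSS and 3 water. The authors deposited raw counts per gene with the exon length of each gene. Per the file headers, featureCounts 1.5.3 summed exon reads per gene, using primary alignments that overlapped by a fraction of at least 0.8, unstranded, on GENCODE release 15. Per the submitters' processing notes, mm10, DESeq2, featureCounts 1.5.2 and STAR 2.5.3a were used. Duplicates were marked, going by the names of the count files.

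Symbols came from GENCODE release 21 by identifier (52403 genes matched, 147 not). Of 2 identifiers named Aldoa, the main locus was used. edgeR 4.0.16 in R 4.3.3 (filterByExpr, TMM, quasi-likelihood test, no covariate) was fitted to all 17449 genes left by the filter, with Benjamini-Hochberg adjustment over all of them and a threshold of 0.05. DESeq2 1.42.0 and limma 3.58.1 were alternatives. Log2 differences are given as DSS over water with the fit's standard error. Levels per kilobase divide TMM CPM by the deposited exon length. Look-alikes were found with blastn 2.17.0, leaving out genes that overlap the member. All pairs of libraries differed by more than sampling noise (lowest chi-square per degree of freedom 13.3). The numbers of the replicates follow accession order and pair nothing.

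The 36 genes, the related and marker lists and the alternatives were chosen with earlier results of these data known. Every member is named, and given in every library where its unadjusted p was under 0.05, its groups did not overlap or it was the most abundant per kilobase of its branch. From each related list up to 4 genes with the smallest p are named, and 1 of these and some paralog shares are not reported here. Further alternatives were RLE size factors, totals with no factor (library totals only), TMM without granule genes, 2 other low-count filters, age as a covariate, 10-week mice only, lane 6 libraries only (water 1 to 3 and DSS 4, going by file names) and each replicate left out in turn. The fit without DSS 2 and DSS 3 was added after seeing the data.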

Additional observations from a re-analysis of the deposited data

Results flagged for a closer look

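Of 89 series of values over the 4 DSS libraries, 9 had a library whose gap to its nearest neighbour took up more of the group's range than Dixon's limit for 4 samples allows, which chance gives in about 5% of groups. The series share the same 4 libraries and are not independent, so the 9 are not read as an excess. The levels and shares of Hk1 and Hk2 among them also rest on the same counts. In 8 of the 9 the library set apart was DSS 2. Hk2 was lowest there, at 67.9 CPM against 84.4 to 85.5 CPM in the other 3 (gap over range 0.936), and Hk1 highest, at 21.1 CPM against 16.0 to 16.6 (0.889). The shares of Hk1 and Hk2 in their sum per kilobase, which mirror each other, had a ratio of 0.964 each, with Hk2 at 82.2% in DSS 2 against 88.1 to 88.3%. Water 2 had a like share of Hk2, 83.3%. Tpi1 was at 150 CPM in DSS 2 against 134.2 to 134.3 (0.996), Ldha at 241 CPM against 212 to 216 (0.849), Pdhb at 68.8 CPM against 63.8 to 64.3 (0.907) and Me1 at 7.77 CPM against 1.73 to 2.47 (0.878). For Txnip it was DSS 1, at 301 CPM against 212 to 222 CPM (0.889). DSS 2 had the largest total count, 32451653. A high tuft marker sum, 796 CPM in DSS 2, and isolation day 16 were shared by DSS 3. DSS 1 had the highest Paneth marker sum of the DSS libraries and was the only DSS library from a 12-week mouse. The part of these traits in the values was not tested.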

How the results depend on the processing

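Of 647 member values under the alternatives, 598 had the same sign and call as reported, 33 the opposite sign, in 13 members, and 16 passed an adjusted p of 0.05 where the reported value did not: 14 under library totals only, all higher (11.9% of all genes tested were higher there and 0.16% lower), and 2 (Gpi1 and Tkt) by DESeq2. Members higher at an unadjusted p under 0.05 numbered 28 under library totals only (35.7% of all genes tested), 2 with age as a covariate (5.24%), 2 in lane 6 only (4.82%), 2 without DSS 2 and DSS 3 (3.98%), and 2 to 8 when 1 library was left out (5.28% to 9.3% of all genes), against 5 (8.36%). Members lower numbered 0 under library totals only (1.0% of all genes), in lane 6 only (6.7%) and without DSS 2 and DSS 3 (3.98%), and 0 to 1 with 1 library left out (4.92% to 8.8% of all genes, 0 members without water 1, water 3 or DSS 1), against 1 (7.35%). Under library totals only the median log2 change was 0.35 over all members, 0.37 in glycolysis, 0.31 in lactate, 0.34 in pyruvate and 0.35 in the pentose phosphate branch, where the median of all genes was 0.23, and 24 members had every DSS library above every water library (31.6% of all genes). The lactate median was 0.019 in lane 6 only and 0.024 (without water 2) to 0.15 (without DSS 3) with 1 library left out. With 1 library left out, 4 to 13 members had every DSS library above (8.66% to 13.1% of all genes, against 7.4% with all libraries). These were 13 members without DSS 1 (12.1% of all genes) and 10, 9 and 8 without water 1, 2 and 3 (13.1%, 11.5% and 10.4%). From 0 to 2 members had every DSS library below, 1 without water 2 (12.1%) and 2 without DSS 4 (10.3%).

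Log2 changes of the opposite sign were few. Under library totals only Pfkfb2 was at 0.14, Rpe at 0.022, Taldo1 at 0.21, Bnip3l at 0.015 and Prps1 at 0.037. In lane 6 only Hk1 was at -0.10, Pfkp at -0.20, Ldha at -0.029, Ldhb at -0.13, Pdk2 at -0.014 and Fbp2 at -0.032. In 10-week mice only Pfkfb4 was at -0.038, Pgk1 at -0.017, Ldhb at -0.19, Taldo1 at 0.086 and Me2 at -0.032. With age as a covariate G6pdx was at -0.035 and Taldo1 at 0.030, and with limma-voom Ldhb was at -0.014. Without DSS 2 and DSS 3 Hk1 was at -0.088, Pfkp at -0.096, Ldha at -0.0062, Slc16a3 at -0.053 and G6pdx at -0.079. With 1 library left out Hk1 ran from -0.074 to 0.16, Pfkp from -0.054 to 0.32, Ldha from -0.0079 to 0.057, Ldhb from -0.19 to 0.21, Slc16a1 from -0.0034 to 0.22, G6pdx from -0.030 to 0.081 and Taldo1 from -0.11 to 0.062. The cause was not tested. For 13 paralog shares, the DSS difference moved by less than 1 pooled SD of the libraries within groups, without length correction and with each library left out. Its sign still turned for Hk2 (-1.05 to 1.94 percentage points), Pfkl, Pfkm (-1.03 to 2.42), Pfkp, Ldha, Slc16a1 and Pdk1. It stayed below 0 for Pfkfb2 (-7.05 to -4.27) and Pdk4 (-6.26 to -4.79). Lane 6 holds 1 DSS library and the 10-week mice 1 water library, whose lone sample is assumed to vary like the others. Ldhb did not pass the filter of 1 CPM in 4 libraries. No paired analysis was possible because the labels give the groups no shared replicate numbers. Depth limits Ldhb, with as few as 9 counts in a library, and Slc16a3, with as few as 38.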
